A study of Bos taurus with 12 samples.

Results

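The comparison described here is that of bovine chromaffin cells treated with interleukin-6 (IL6) and untreated bovine chromaffin cells. It uses 6 of the 12 arrays of the study, the 3 labelled as IL6-treated and the 3 labelled as untreated controls, and all 24016 probe sets on them that are not control probe sets. Chromaffin cells make, store and secrete catecholamines in the adrenal medulla, and these came from adrenal glands and were kept in culture. The treated cells received IL6 at 10 nM for 24 h. The untreated cells received no agent, and how long they were kept is not stated in the labels. The other 6 arrays, from cells given human interferon alpha (1 nM, 24 h) or histamine (10 µM, 6 h), enter only the shared estimate of the spread. The labels state neither the number of animals nor any pooling of glands. The submitters describe the triplicates as technical repeats, so every p-value below measures only the spread between these arrays.

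IL6 is a cytokine of injury and infection that binds the receptor subunit IL6R, and the pair then engages gp130 (gene IL6ST), the signal-transducing chain shared by a family of cytokines. Kinases of the JAK family bound to gp130 phosphorylate STAT3, which enters the nucleus and switches on target genes, among them SOCS3, an inhibitor that closes the loop by blocking the receptor and its kinases. A second branch runs from gp130 through the RAS and MAP kinase cascade to immediate early genes. In the adrenal medulla, cytokines can reach chromaffin cells through the blood or from the neighbouring cortex, and the cells answer by releasing catecholamines and neuropeptides.

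All levels below are log2 values on the scale of the deposited table, on which a difference of 1 is a doubling of signal, and each set of 3 values is given in the order of repeats 1, 2 and 3. The mean of each array was 6.79, and the lower quartile of the 6 arrays lay between 5.02 and 5.11. A gene whose lower group mean is below 5.02 is close to background, and its fold is given as "at least". The highest values on these arrays were 14.01 to 14.14, so changes in genes near that level may be understated. Correlations across probe sets were 0.993 to 0.997 among IL6 arrays, 0.998 among untreated arrays and 0.989 to 0.993 between the groups. The median SD over 3 repeats was 0.0907 for IL6 arrays and 0.0702 for untreated arrays. The number of arrays limits the precision.

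The IL6 repeats were not alike in all genes. Transcripts known to respond to low oxygen were higher on IL6 repeats 2 and 3 than on repeat 1, and also on repeat 3 of the interferon alpha arrays. Each change is therefore described by repeat, as the IL6 array minus the mean of the 3 untreated arrays. Over the 41 genes of a hypoxia and glycolysis list, the mean log2 change from untreated cells was 0.06, 0.53 and 0.83 on IL6 repeats 1, 2 and 3. It was 0.55 on that interferon array, and between -0.07 and 0.17 on the other interferon alpha and histamine arrays. Results are also given without those 3 arrays, called the reduced fit below. In it IL6 repeat 1 stands alone, and its spread is taken to be that of the other groups.

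The labelled cell type was borne out by its markers. TH (tyrosine hydroxylase), CHGA (chromogranin A) and PENK (proenkephalin) read 13.64, 13.41 and 13.83 on IL6 repeat 1, and 13.45, 13.60 and 13.90 on untreated repeat 1. Some markers of other cells were near background, 4 of 16 for leukocytes and 5 of 15 for endothelium, and others, such as CORO1A, CD14 and EMCN, were not. Among the dim ones PTPRC (CD45) stood at 4.56, 4.60 and 4.70 on IL6 arrays against 4.50, 4.59 and 4.58 on untreated arrays, and VWF (von Willebrand factor) at 4.64, 4.54 and 4.52 against 4.75, 4.70 and 4.57. Transcripts of cortical cells were measurable at low levels. Fibroblast and mural cell markers were well above background, with 1 of 16 dim, and so were Schwann and sustentacular markers, with 0 of 7 dim. The summed signal of the fibroblast and mural markers, in log2, was 14.30, 14.24 and 14.26 on untreated arrays. For 10 chromaffin markers it was 16.28, 16.26 and 16.24.

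A gene was called changed if its fold was 1.5 or more and its adjusted p was under 0.05 in limma's moderated test over all 12 arrays with Benjamini-Hochberg adjustment over all probe sets. After IL6, 345 probe sets rose (1.44%) and 228 fell (0.949%), together 2.39%. Of 9155 named genes, each taken at its brightest probe set, 158 rose (1.73%) and 95 fell (1.04%), together 2.76%. The other 250 called probe sets had no single symbol and are not named. In the reduced fit, 176 named genes rose (1.92%) and 120 fell (1.31%). The median log2 change over all named genes was -0.01. Counts of called list members below are to be read beside the 1.73% and 1.04% of all named genes. The lists were chosen with earlier results of these data known, so such counts are not tests of the lists.

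Most called genes moved on each repeat, though the call itself rests on the mean of these same repeats. Of the 158 that rose, 130 passed 1.5-fold on repeat 1, 153 on repeat 2 and 135 on repeat 3, and 107 passed it on all 3. Of the 95 that fell, 74, 74 and 83 did so on repeats 1, 2 and 3, and 52 on all 3. Over all 9155 named genes, 178, 190 and 240 were up by 1.5-fold or more on repeats 1, 2 and 3, and 120, 95 and 159 down. With each IL6 repeat fitted alone against the untreated arrays, 101 of the 158 and 51 of the 95 were called every time. Those fits called 1.85%, 1.73% and 2.42% of named genes as risen with repeats 1, 2 and 3, and 1.26%, 0.972% and 1.66% as fallen. Genes were then ranked by the repeat that moved least, 30 in each direction. The smallest least-moved log2 change was 1.18 among the rises and -0.71 among the falls, both past the fold minimum. Passing that minimum on repeat 1, the IL6 array of the reduced fit, was therefore fixed by the ranking. The reduced fit is no separate check of these genes.

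**Figure D1:**
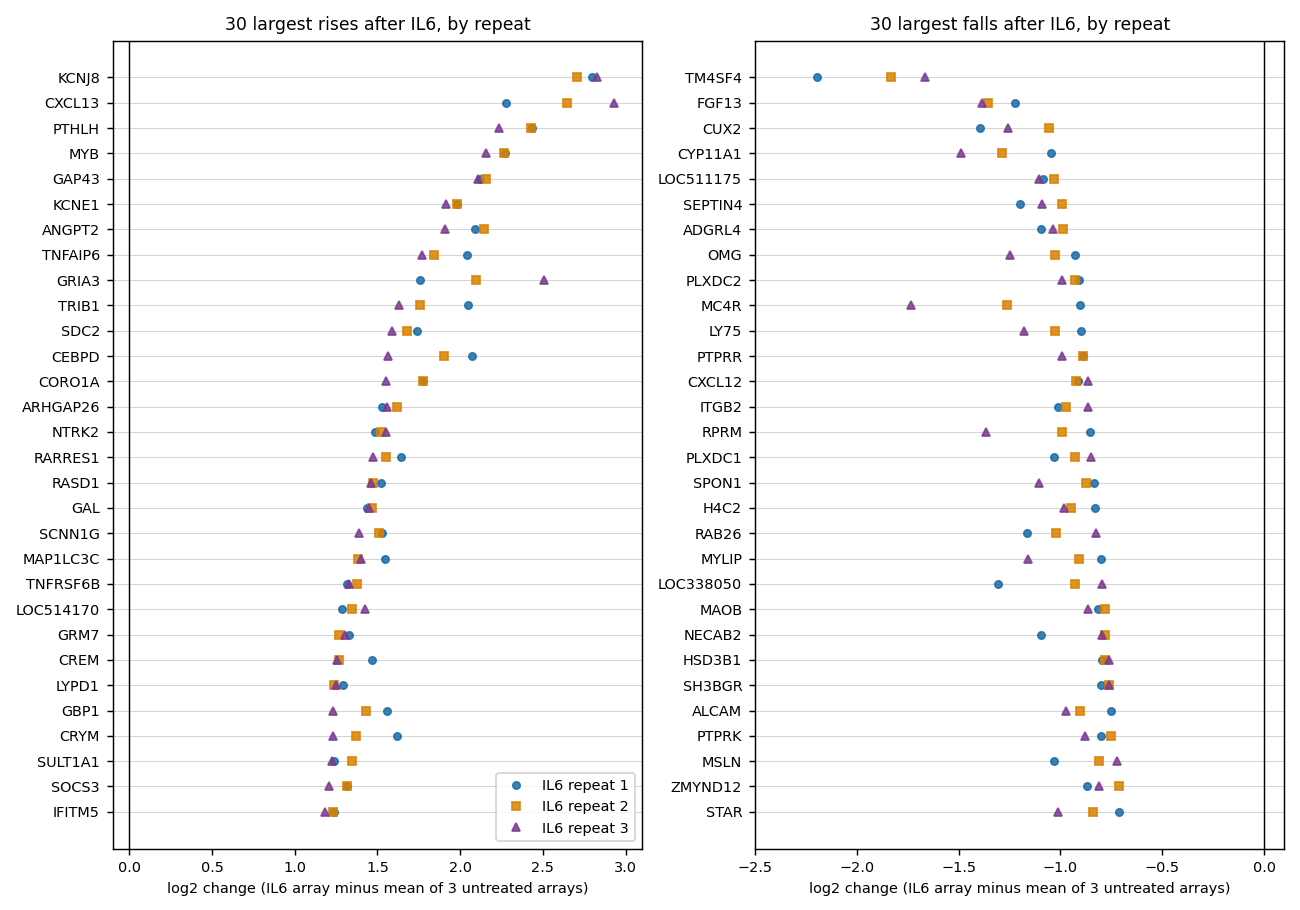
Log2 change of each IL6 repeat from the mean of the 3 untreated arrays (x axis, log2) for the 30 called genes with the largest least-moved rise and the 30 with the largest least-moved fall (y axis). Points are single IL6 arrays. For KCNJ8, at the head of the rises, the repeats lie at 2.80, 2.71 and 2.83, and for TM4SF4, at the head of the falls, at -2.19, -1.83 and -1.66.

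The first question is how the IL6 signalling pathway itself stood after 24 h. SOCS3, SOCS2 and NMI, which regulate it, rose, while IL6R and JAK1 were not called. IL6R, the ligand-binding receptor subunit, read 6.61, 6.17 and 6.26 on IL6 arrays and 6.14, 6.25 and 6.14 on untreated arrays, and the groups overlapped (log2 change 0.17, SE 0.13, limma adjusted p = 0.419). JAK1, a gp130-bound kinase, read 11.55, 11.41 and 11.37 after IL6 against 11.47, 11.39 and 11.38 untreated, also with overlap. STAT3, the transcription factor of the pathway, read 10.92, 10.93 and 10.91 on IL6 arrays, all above the untreated 10.59, 10.60 and 10.53. Its log2 change of 0.35 (SE 0.05, limma adjusted p = 0.000141) passed the test but not the 1.5-fold minimum. IL6ST, JAK2 and TYK2 were not analysed here, since no probe set carried their symbol alone.

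SOCS3, the STAT3-induced inhibitor of gp130 signalling, read 5.97, 5.97 and 5.86 on IL6 arrays against 4.65, 4.66 and 4.65 on untreated arrays. The untreated arrays were near background and the IL6 arrays clearly apart, a rise of at least 2.43-fold (log2 change 1.28, SE 0.07, limma adjusted p = 3.58e-08). SOCS2, an inhibitor best known from growth hormone signalling, rose 1.55-fold, with 7.73, 8.0 and 7.74 after IL6 against 7.15, 7.26 and 7.17 untreated. It missed the fold minimum without IL6 repeat 2 (log2 change 0.54) and in the reduced fit (0.54). NMI, a protein that binds STAT factors and MYC, read 10.71, 10.63 and 10.48 on IL6 arrays against 9.45, 9.46 and 9.44 on untreated arrays, a 2.23-fold rise (log2 change 1.16, SE 0.06, limma adjusted p = 2.23e-08). These were the called members among 18 measured JAK kinases, STAT factors and inhibitors, of which 3 rose and 0 fell, with a median log2 change of 0.10. Of the 15 others, SOCS5 and PTPN6, a phosphatase that restrains JAK kinases, were lower on every IL6 array but below the fold minimum, at log2 changes of -0.34 and -0.41.

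Among 7 measured gp130-family receptors, ligands and their processing enzymes, 1 rose and 0 fell. OSMR, the receptor subunit for oncostatin M, read 7.37, 7.88 and 8.18 on IL6 arrays against 6.77, 7.0 and 6.86 on untreated arrays, a 1.91-fold rise (log2 change 0.93, SE 0.15, limma adjusted p = 0.000749). Every IL6 array exceeded every untreated array, with repeat 1 the lowest. In the reduced fit the log2 change was 0.49, below the fold minimum. The IL6 transcript itself was near background in both groups but higher on every IL6 array than on any untreated array. It read 5.15, 4.86 and 4.86 after IL6 against 4.56, 4.42 and 4.37 untreated.

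**Figure D2:**
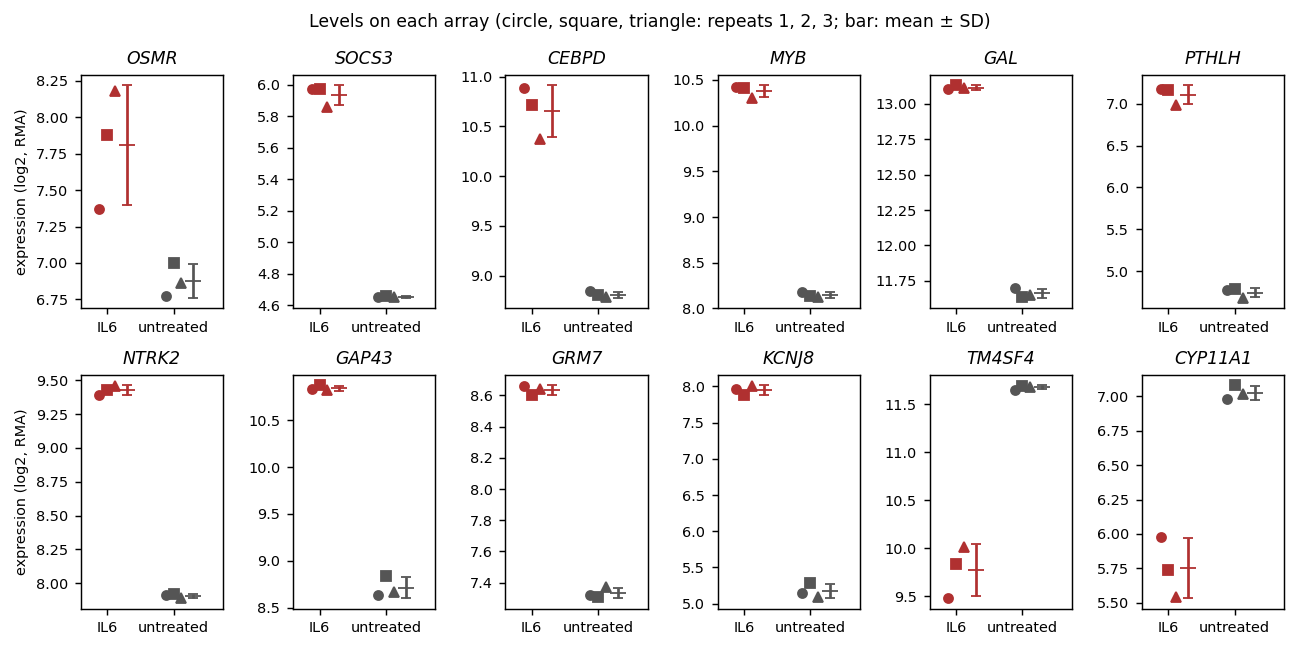
Log2 expression (y axis) of 12 genes on the 3 IL6 arrays (left in each panel) and the 3 untreated arrays (right). Circles, squares and triangles are repeats 1, 2 and 3, and bars are the mean and SD of each group. The SOCS3 arrays lie between 5.86 and 5.97 after IL6 and between 4.65 and 4.66 untreated, and OSMR spreads more after IL6, between 7.37 and 8.18.

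Among 18 genes known as STAT3-responsive from other cell types, 3 rose and 0 fell, with a median log2 change of 0.17. CEBPD, a transcription factor of the acute-phase response, moved most. It read 10.88, 10.71 and 10.37 on IL6 arrays against 8.84, 8.80 and 8.78 on untreated arrays, a 3.60-fold rise (log2 change 1.85, SE 0.12, limma adjusted p = 1.29e-07). ZFP36, which binds and destabilises cytokine mRNAs, rose 1.69-fold, with 7.84, 7.59 and 7.33 after IL6 against 6.76, 6.86 and 6.86 untreated. JUNB, a subunit of the AP-1 transcription factor, rose 1.66-fold, with 10.01, 10.50 and 10.66 after IL6 against 9.60, 9.74 and 9.64 untreated. For JUNB repeat 1 was the least changed, and in the reduced fit its log2 change was 0.35, below the fold minimum. Of the uncalled members, BCL3, a co-activator of NF-kB, and the TNF receptor TNFRSF1A were higher on every IL6 array (log2 changes 0.51 and 0.57), and cyclin D1, CCND1, was lower on every IL6 array (-0.43). MYC ranged widely over the repeats, at 9.83, 9.27 and 8.77 after IL6 against 9.29, 9.38 and 9.39 untreated, and overlapped.

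Of 28 immediate early and cAMP- or calcium-responsive transcription genes, 5 rose (17.9%) and 2 fell (7.14%). CREM, which encodes activators and repressors of the cAMP response, read 9.77, 9.57 and 9.56 on IL6 arrays against 8.26, 8.40 and 8.25 on untreated arrays (2.51-fold, log2 change 1.33, SE 0.10, limma adjusted p = 4.3e-07). The mean of all its probe sets moved by 0.41 only. ATF3, a stress- and injury-induced transcription factor, read 11.63, 11.38 and 11.12 after IL6 against 10.29, 10.33 and 10.30 untreated (2.10-fold, SE 0.10). RASD1, a small G protein first known as induced by dexamethasone, rose 2.80-fold, with 8.71, 8.66 and 8.65 after IL6 against 7.26, 7.17 and 7.13 untreated. All IL6 arrays of these 3 genes lay above all untreated arrays.

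JUN and KLF10 rose 1.55-fold each. JUN missed the fold minimum without IL6 repeat 1 (log2 change 0.56), and KLF10, a transcription factor of the TGF-beta response, missed it in the reduced fit (0.52). ID3, an inhibitor of helix-loop-helix transcription factors that bone morphogenetic proteins induce, read 8.80, 8.94 and 8.84 on IL6 arrays, all below the untreated 9.50, 9.51 and 9.62 (log2 change -0.68, SE 0.07, limma adjusted p = 5.04e-06). The orphan nuclear receptor NR4A2 read 6.65, 6.89 and 6.54 after IL6 against 7.55, 7.56 and 7.52 untreated (-0.85, SE 0.09), but the mean of its probe sets changed by -0.23 only. FOS and EGR1, the classic early genes, were not called, and both were lowest on IL6 repeat 1. FOS read 6.99, 7.29 and 7.74 after IL6 against 6.92, 6.77 and 6.84 untreated.

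Feedback genes of the MAP kinase cascade did not move as a block, with 2 of 17 up (11.8%) and 1 down (5.88%). Over all named genes the shares were 1.73% and 1.04%. The median log2 change of the 17 was -0.05. ERRFI1 and SPRY2, inhibitors of growth factor receptor signalling, rose and the tyrosine phosphatase PTPRR fell. PTPRR, which dephosphorylates ERK kinases, read 9.94, 9.94 and 9.84 on IL6 arrays, all below the untreated 10.88, 10.85 and 10.76 (log2 change -0.92, SE 0.05, limma adjusted p = 3.58e-08). SPRY2 rose 1.5-fold and missed the minimum without IL6 repeat 2 (0.55) or untreated repeat 2 (0.54) and in the reduced fit (0.56). ERRFI1 rested on repeats 2 and 3, at 9.17, 9.61 and 10.02 after IL6 against 9.05, 8.93 and 8.90 untreated, and its log2 change was 0.21 in the reduced fit. Its call (limma adjusted p = 0.039) was also lost without any 1 untreated array, without IL6 repeat 2 or 3, and without histamine repeat 1 or 2, with log2 changes between 0.43 and 0.69, and the mean of its probe sets changed by 0.30.

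TRIB1, a pseudokinase that directs CEBP proteins to degradation, was among the largest rises outside those lists. It read 9.58, 9.29 and 9.16 on IL6 arrays against 7.66, 7.51 and 7.42 on untreated arrays (3.51-fold, log2 change 1.81, SE 0.10, limma adjusted p = 1.43e-08). MYB, a transcription factor of progenitor cells, read 10.42, 10.41 and 10.30 after IL6 against 8.18, 8.14 and 8.12 untreated (4.69-fold, SE 0.09). In both genes every IL6 array was above every untreated array.

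Of 23 measured neuropeptides and peptide hormones, 4 rose (17.4%) and 1 fell (4.35%), with a median log2 change of 0.15. GAL, which encodes the neuropeptide galanin, read 13.10, 13.13 and 13.11 on IL6 arrays against 11.70, 11.64 and 11.65 on untreated arrays (2.73-fold, log2 change 1.45, SE 0.03, limma adjusted p = 4.75e-13). The 3 repeats lay within 0.03 of each other, near the top of the scale. PTHLH, which encodes parathyroid hormone-related protein, was near background in untreated cells, at 7.18, 7.17 and 6.98 after IL6 against 4.77, 4.78 and 4.68 untreated, a rise of at least 5.16-fold. VIP, vasoactive intestinal peptide, read 5.57, 5.59 and 5.80 after IL6 against 4.82, 4.94 and 4.81 untreated, a rise of at least 1.74-fold that left it dim.

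NPPA, which encodes atrial natriuretic peptide, read 7.76, 7.71 and 7.80 on IL6 arrays against 6.86, 6.54 and 6.70 on untreated arrays (2.08-fold, log2 change 1.06, SE 0.08, limma adjusted p = 5.85e-07). NXPH1, a secreted ligand of neurexins, fell, with 10.19, 10.10 and 9.98 after IL6 against 10.86, 10.96 and 10.82 untreated (log2 change -0.79, SE 0.10). PENK, the most abundant of these, read 13.83, 13.82 and 13.84 after IL6 against 13.90, 13.86 and 13.90 untreated, too near the top of the scale for a small change to be read. Adrenomedullin, ADM, differed between repeats more than between groups, at 10.92, 11.70 and 12.08 after IL6 against 11.64, 11.64 and 11.61 untreated. Of 14 granins and prohormone-processing genes, 0 rose and 0 fell by the call, and 8 had an unadjusted limma p under 0.05, which 3236 of all 9155 named genes had. CHGB, chromogranin B, was lower on every IL6 array, at 13.51, 13.53 and 13.53 against 13.80, 13.76 and 13.77 on untreated arrays, a log2 change of -0.25 close to the top of the scale.

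Genes of catecholamine synthesis, storage and breakdown did not move as a block: of 16 measured, 2 rose (12.5%) and 2 fell (12.5%). TH, the rate-limiting enzyme, read 13.64, 13.69 and 13.65 on IL6 arrays, above the untreated 13.45, 13.51 and 13.38. Its log2 change of 0.21 (SE 0.03, limma adjusted p = 0.000181) passed the test but not the fold minimum. TH lay near the top of the scale, so its change may be understated. SLC18A2, the vesicular monoamine transporter, read 12.12, 12.32 and 12.61 after IL6 against 11.56, 11.45 and 11.48 untreated (1.81-fold, log2 change 0.85, SE 0.18, limma adjusted p = 0.00465). SULT1A1, a sulfotransferase of phenols and catecholamines, read 10.30, 10.41 and 10.29 after IL6 against 9.06, 9.08 and 9.05 untreated (2.41-fold, SE 0.07). The 3 genes were higher on every IL6 array than on any untreated array. MAOB, a mitochondrial oxidase of amines, fell, at 8.99, 9.02 and 8.94 on IL6 arrays against 9.84, 9.79 and 9.78 on untreated arrays (log2 change -0.82, SE 0.06, limma adjusted p = 6.13e-07).

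PNMT, DBH, CYB561 and SLC6A2 varied with the repeat. PNMT, which makes adrenaline from noradrenaline, read 6.94, 7.49 and 7.79 on IL6 arrays, all below the untreated 8.08, 8.06 and 8.22 (log2 change -0.71, SE 0.23, limma adjusted p = 0.0451). Its call was lost without any 1 untreated array, without IL6 repeat 1 or 2 and without histamine repeat 1 or 2, with log2 changes between -0.76 and -0.48, and with the arrays scaled again (-0.68 to -0.65). DBH, which makes noradrenaline, read 10.17, 10.76 and 11.22 after IL6 against 11.51, 11.25 and 11.15 untreated and was not called (-0.59, limma adjusted p = 0.0914). It was lowest on IL6 repeat 1, and repeat 3 lay among the untreated arrays. DBH passed the call without IL6 repeat 3 (-0.84).

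In the reduced fit, PNMT had a log2 change of -1.18 and DBH one of -1.13, and both were called. In that fit CYB561, the electron carrier that keeps vesicular ascorbate reduced, and SLC6A2, the noradrenaline transporter, were called too, at -0.74 and -0.89. So 2 of 16 catecholamine genes rose and 5 fell in it, the fall of each of these 4 resting on IL6 repeat 1 alone. With IL6 repeat 1 alone and the interferon array kept, 1 rose and 5 fell. These genes lay closer to the untreated level on the 2 repeats with the higher hypoxia genes, whose part in it was not tested.

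**Figure D3:**
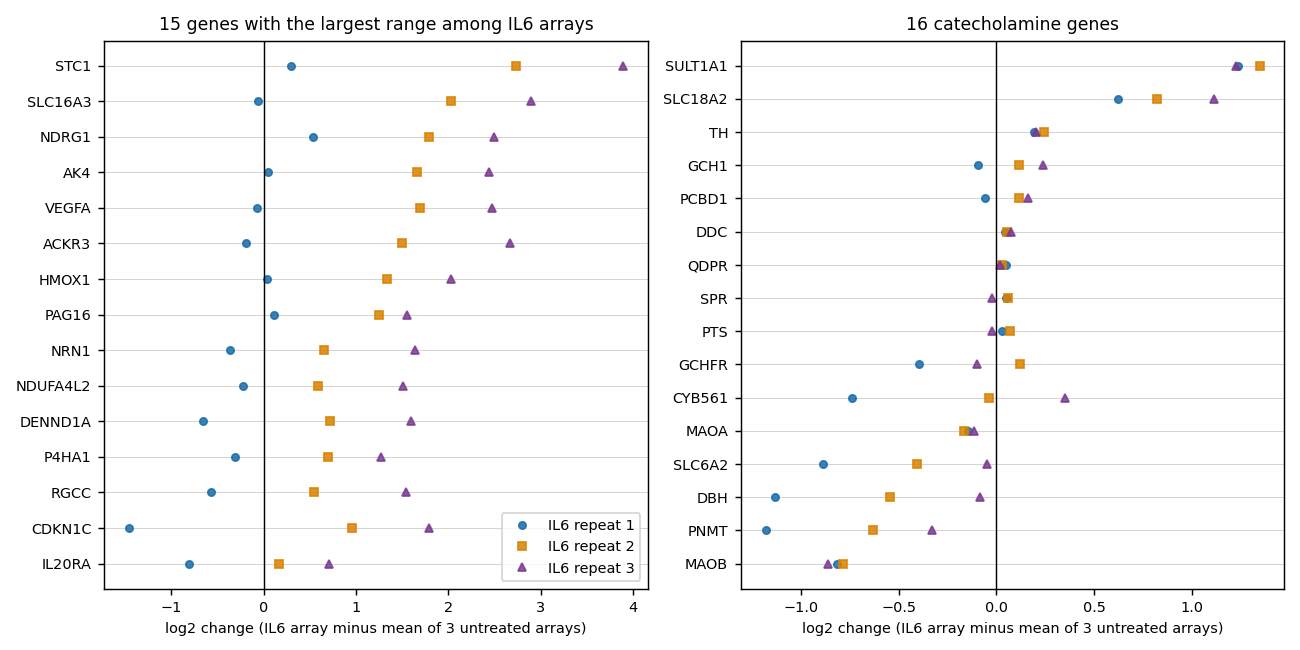
Log2 change of each IL6 repeat from the mean of the 3 untreated arrays (x axis, log2) for the 15 named genes with the largest range among IL6 arrays (left) and for 16 catecholamine genes (right), 1 gene per row. Points are single IL6 arrays. VEGFA is near 0 on repeat 1 and far above it on the other repeats, and DBH lies at -1.13, -0.54 and -0.08 on repeats 1, 2 and 3.

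Signal receptors of the chromaffin cell were mostly below the call: of 30 measured, 2 rose (6.67%) and 1 fell (3.33%). EDNRB, the endothelin B receptor, read 6.63, 6.19 and 5.87 on IL6 arrays against 5.17, 4.81 and 4.87 on untreated arrays, a rise of at least 2.43-fold. PTGER3, a prostaglandin E2 receptor, rose 1.61-fold, with 8.12, 8.21 and 8.27 after IL6 against 7.71, 7.39 and 7.43 untreated. MC4R, a melanocortin receptor, read 7.87, 7.51 and 7.04 on IL6 arrays against 8.86, 8.72 and 8.74 on untreated arrays (log2 change -1.30, SE 0.23, limma adjusted p = 0.00138). No array of these 3 genes crossed into the other group. The nicotinic subunit CHRNA3, through which splanchnic nerves drive secretion, overlapped, at 8.95, 8.84 and 8.56 after IL6 against 8.80, 8.72 and 8.57 untreated. Of 27 exocytosis genes, 0 were called either way by limma, and 10 had an unadjusted limma p under 0.05, against 3236 of all 9155 named genes. Of 6 transcription factors of the chromaffin lineage, 0 were called.

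Channels and transmitter receptors held several of the largest rises. KCNJ8, which forms the pore of ATP-sensitive potassium channels, read 7.97, 7.88 and 8.0 on IL6 arrays against 5.15, 5.28 and 5.09 on untreated arrays (6.85-fold, log2 change 2.78, SE 0.11, limma adjusted p = 1.04e-09). KCNE1, an accessory subunit of voltage-gated potassium channels, read 7.69, 7.69 and 7.62 after IL6 against 5.57, 5.89 and 5.66 untreated (3.89-fold, SE 0.08). These were the called members of 25 measured potassium channel genes, of which 8% rose and 0 fell. SCNN1G, a subunit of the epithelial sodium channel, read 6.70, 6.68 and 6.56 after IL6 against 5.18, 5.20 and 5.13 untreated (2.78-fold, SE 0.09). It was the sole called member of 19 sodium and calcium channel genes. The untreated means of KCNJ8 and SCNN1G, 5.17 each, lay not far above the 5.02 taken as background, so their folds may be understated.

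GRIA3, an AMPA-type glutamate receptor subunit, read 8.31, 8.65 and 9.06 on IL6 arrays against 6.50, 6.51 and 6.65 on untreated arrays (4.35-fold, log2 change 2.12, SE 0.19, limma adjusted p = 2.31e-06). GRM7, a G protein-coupled glutamate receptor, read 8.66, 8.60 and 8.64 after IL6 against 7.32, 7.31 and 7.37 untreated (2.46-fold, SE 0.07). Of 9 measured glutamate and GABA receptor genes these 2 rose and 0 fell. GRM7 was even over the repeats, whereas GRIA3 was lowest on IL6 repeat 1, where its change was still 1.76.

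Of 28 genes of axon growth and nerve injury, 5 rose and 2 fell, with a median log2 change of 0.19. On every IL6 array, 15 of the 28 were higher and 8 lower than on any untreated array. Among all 9155 named genes, 1473 (16.1%) were higher and 2061 (22.5%) lower in that way. The axon list was chosen with earlier results of these data known, so these counts are not a test of it. GAP43, a membrane protein of growing axon tips, read 10.83, 10.87 and 10.82 on IL6 arrays against 8.63, 8.84 and 8.67 on untreated arrays (4.37-fold, log2 change 2.13, SE 0.07, limma adjusted p = 4.29e-10). The adhesion molecule NRCAM rose 1.82-fold, with 9.24, 8.84 and 9.01 after IL6 against 8.18, 8.20 and 8.13 untreated. DPYSL3, a microtubule-associated protein of growth cones, rose 1.51-fold and missed the minimum without untreated repeat 3 (log2 change 0.55), or IL6 repeat 1 (0.57) or 2 (0.57). MARCKSL1, an actin-binding protein, rose 1.59-fold, and ATF3 is given above. The log2 change of MARCKSL1 was 0.58 in the reduced fit, just under the minimum.

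NEFL, the light neurofilament subunit, and OMG, a myelin protein that restrains axon growth, fell. NEFL read 9.82, 9.98 and 10.02 on IL6 arrays against 10.69, 10.70 and 10.73 on untreated arrays (log2 change -0.77, SE 0.06, limma adjusted p = 9.73e-07). OMG read 6.39, 6.29 and 6.07 after IL6 against 7.28, 7.33 and 7.34 untreated (-1.07, SE 0.12). Below the fold minimum, STMN2 and TUBA1A, which encode a tubulin regulator and a neuronal tubulin, were higher on every IL6 array (0.41 and 0.40), and the medium neurofilament NEFM was lower on every IL6 array (-0.38).

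NTRK2, the receptor for brain-derived neurotrophic factor, read 9.39, 9.43 and 9.46 on IL6 arrays against 7.91, 7.92 and 7.89 on untreated arrays (2.87-fold, log2 change 1.52, SE 0.06, limma adjusted p = 1.23e-09). FGF13, an intracellular growth factor homologue that binds sodium channels, read 8.45, 8.32 and 8.29 after IL6 against 9.76, 9.62 and 9.64 untreated (log2 change -1.32, SE 0.12). Among 17 neurotrophic factors and receptors these were the called members, 1 in each direction, and neither gene had overlapping arrays. Of 26 guidance genes, NRP1, a semaphorin and VEGF co-receptor, rose 1.58-fold and the semaphorin receptor PLXNC1 fell (-0.62). Each share was 3.85% of the 26, against 1.73% risen and 1.04% fallen among all named genes. Without IL6 repeat 1, NRP1 missed the minimum at 0.58, and in the reduced fit PLXNC1 missed it at -0.58.

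Cytokines, chemokines and their receptors moved in both directions. CXCL13, a B cell-attracting chemokine, read 7.71, 8.08 and 8.36 on IL6 arrays against 5.33, 5.63 and 5.34 on untreated arrays (6.13-fold, log2 change 2.62, SE 0.18, limma adjusted p = 2.31e-07). CXCL12, the chemokine that retains progenitor cells in their niche, went the other way, at 5.91, 5.90 and 5.96 after IL6 against 6.87, 6.82 and 6.78 untreated (-0.90, SE 0.07). Of 54 cytokines, chemokines and their receptors, 5 rose (9.26%) and 2 fell (3.7%), with a median log2 change of 0.17. The others that rose were receptors, namely IFNGR2 (interferon gamma, 1.79-fold), IL10RA (1.76-fold), IL4R (1.58-fold) and TNFRSF21 (1.60-fold), and IL18, an inflammasome cytokine, fell by 0.67 on the log2 scale. The mean over the probe sets of IFNGR2 (0.47) and of IL4R (0.54) was below the minimum. TNFRSF6B, a soluble decoy receptor for Fas ligand, read 11.33, 11.39 and 11.34 after IL6 against 10.06, 10.08 and 9.90 untreated (2.53-fold).

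Of 40 interferon-responsive genes, 4 rose (10%) and 0 fell, with a median log2 change of 0.12. GBP1, a guanylate-binding protein of cell-autonomous defence, read 9.41, 9.28 and 9.08 on IL6 arrays against 7.93, 7.90 and 7.72 on untreated arrays (2.65-fold, log2 change 1.41, SE 0.08, limma adjusted p = 3.33e-08). IFI27 rose 2.24-fold, with 8.52, 8.56 and 8.73 after IL6 against 7.58, 7.38 and 7.36 untreated. The remaining members that rose were NMI, given above, and IFITM1, a membrane protein that restricts viral entry, at 1.52-fold. IFITM1 missed the minimum without IL6 repeat 3 (0.57) and in the reduced fit (0.49), and the mean of its probe sets changed by 0.37. Of 16 genes of class I antigen presentation, TAP1, the peptide transporter, rose 1.62-fold and 0 fell. Of 20 NF-kB pathway genes 0 were called by limma, and 6 had an unadjusted limma p under 0.05, against 3236 of all 9155 named genes.

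Acute-phase, complement and clotting genes rose in 4 of 38 cases and fell in 0. TF, transferrin, read 7.26, 7.41 and 7.26 on IL6 arrays against 6.21, 6.29 and 6.19 on untreated arrays (2.11-fold, log2 change 1.08, SE 0.08, limma adjusted p = 5.17e-07). F3, tissue factor, rose 1.84-fold, with 7.36, 7.36 and 7.19 after IL6 against 6.50, 6.33 and 6.43 untreated. C1S, a complement protease, rose 1.60-fold. C3, the central complement component, rose 1.62-fold (limma adjusted p = 0.0159) and was lowest on IL6 repeat 1, at 7.50, 7.90 and 8.20 after IL6 against 7.17, 7.15 and 7.19 untreated. Its call was lost without untreated repeat 2 (log2 change 0.69), IL6 repeat 2 (0.68) or IL6 repeat 3 (0.53), and it was 0.33 in the reduced fit. The mean of its probe sets changed by 0.27.

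Proteases and their inhibitors changed in 5 of 31 cases, 4 up (12.9%) and 1 down (3.23%). TNFAIP6, a hyaluronan-binding protein of inflamed tissue, read 10.58, 10.38 and 10.31 on IL6 arrays against 8.65, 8.49 and 8.48 on untreated arrays (3.69-fold, log2 change 1.88, SE 0.09, limma adjusted p = 5.26e-09). The plasminogen activators PLAU and PLAT rose 1.84-fold and 1.56-fold, and TIMP1, an inhibitor of matrix metalloproteinases, rose 1.64-fold. TIMP1 read 12.96, 12.97 and 12.92 after IL6 against 12.20, 12.33 and 12.19 untreated. Without IL6 repeat 1 the log2 change of PLAT was 0.57, under the minimum. SERPINF1, pigment epithelium-derived factor, fell (-0.59) and stood at the edge of the minimum, missing it without untreated repeat 2 (-0.53) or 3 (-0.58) and without IL6 repeat 1 (-0.58) or 3 (-0.56).

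Matrix and adhesion genes changed in 4 of 68 cases, 1 up (1.47%) and 3 down (4.41%). The share that rose was close to the 1.73% of all named genes, of which 1.04% fell. POSTN, periostin, rose 1.92-fold, at 7.01, 6.80 and 6.97 on IL6 arrays against 6.05, 5.88 and 6.02 on untreated arrays. THBS1, thrombospondin 1, read 9.67, 9.52 and 9.50 after IL6 against 10.31, 10.25 and 10.30 untreated (log2 change -0.72, SE 0.11, limma adjusted p = 0.000338), though the mean of its probe sets changed by -0.35 only. The integrin subunit ITGB2 fell (-0.95), and so did the basement membrane protein NID1 (-0.59), which missed the minimum without untreated repeat 2 (-0.58) or 3 (-0.55) or IL6 repeat 2 (-0.57). ANGPT2, a ligand of the endothelial receptor TEK, was the sole called member of 23 angiogenic factors and receptors. It read 7.72, 7.78 and 7.54 after IL6 against 5.80, 5.38 and 5.72 untreated (4.13-fold, log2 change 2.05, SE 0.10, limma adjusted p = 8.78e-09). SDC2, a cell-surface heparan sulfate proteoglycan outside these lists, read 9.87, 9.81 and 9.72 after IL6 against 8.18, 8.11 and 8.11 untreated (3.17-fold).

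Other genes of the ranking of rises belonged to no list. ARHGAP26 read 7.85, 7.94 and 7.88 on IL6 arrays against 6.29, 6.41 and 6.26 on untreated arrays (2.97-fold, log2 change 1.57, SE 0.09, limma adjusted p = 5.57e-08). RARRES1, a retinoid-responsive gene, read 8.93, 8.84 and 8.76 after IL6 against 7.23, 7.27 and 7.36 untreated (2.94-fold). CRYM, a cytosolic thyroid hormone-binding protein, read 8.76, 8.51 and 8.37 after IL6 against 7.06, 7.15 and 7.21 untreated (2.65-fold). In each of them the groups were well apart. MAP1LC3C, an autophagosome protein, rose 2.72-fold, LYPD1, a modulator of nicotinic receptors, rose 2.39-fold, and IFITM5 and LOC514170 rose 2.32-fold and 2.56-fold. Over the 30 rises, 23 had all 3 repeats within 0.25 of each other, and over the 30 falls 16 did.

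TM4SF4, a tetraspanin-like membrane protein, had the largest fall. It read 9.48, 9.84 and 10.01 on IL6 arrays against 11.65, 11.69 and 11.68 on untreated arrays (log2 change -1.90, SE 0.09, limma adjusted p = 5.28e-09). CUX2, a homeodomain transcription factor of neurons, reached background after IL6, at 4.68, 5.02 and 4.82 against 6.00, 6.09 and 6.14 untreated, so it was lower by at least 2.36-fold. ADGRL4, an adhesion G protein-coupled receptor known from endothelium, read 5.52, 5.63 and 5.58 after IL6 against 6.70, 6.54 and 6.61 untreated (-1.04, SE 0.12). In the 3 genes every IL6 array was lower than every untreated array. SEPTIN4, a septin GTPase, and RPRM, a p53-induced cell cycle inhibitor, fell by 1.09 and by 1.07 on the log2 scale. RAB26, a small GTPase of secretory vesicles, read 6.72, 6.86 and 7.06 after IL6 against 7.84, 7.92 and 7.89 untreated (-1.0, SE 0.08).

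The ranking of falls held further genes outside the lists. PLXDC1 and PLXDC2, plexin domain membrane proteins, fell by 0.94 each on the log2 scale. PLXDC1 read 6.61, 6.71 and 6.79 on IL6 arrays against 7.67, 7.62 and 7.63 on untreated arrays (limma adjusted p = 2.54e-07). ALCAM, an adhesion molecule of axons and leukocytes, fell by 0.88, the endocytic receptor LY75 by 1.03, the extracellular matrix protein SPON1 by 0.94 and the receptor phosphatase PTPRK by 0.81. PTPRK read 7.79, 7.84 and 7.71 after IL6 against 8.54, 8.59 and 8.64 untreated, with no overlap. MYLIP, a ubiquitin ligase for lipoprotein receptors, fell by 0.96, the calcium-binding protein NECAB2 by 0.89 and mesothelin, MSLN, by 0.85. H4C2, a histone gene, read 8.31, 8.19 and 8.16 after IL6 against 9.10, 9.11 and 9.21 untreated (log2 change -0.92, SE 0.07). SH3BGR and ZMYND12 fell by 0.77 and 0.80, and the uncharacterised loci LOC511175 and LOC338050 by 1.07 and 1.01.

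Hypoxia and glycolysis genes differed between the IL6 repeats, which was known beforehand and is why changes are described by repeat. Of 41 measured, 9 rose and 0 fell, with a median log2 change of 0.43, but the mean change of the list was 0.06 on repeat 1, 0.53 on repeat 2 and 0.83 on repeat 3. Past 1.5-fold were 3, 15 and 25 members on repeats 1, 2 and 3. The lowest IL6 level fell on repeat 1 and the highest on repeat 3 for 36 of the 41, against 1963 of all 9155 named genes. That order was not particular to this list, and 8 of 16 catecholamine genes and 7 of 10 chromaffin markers had it too. In the reduced fit, 3 of the 41 rose and 1, adrenomedullin, fell.

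PKM, a pyruvate kinase gene, was level over the repeats, at 9.92, 9.91 and 9.93 on IL6 arrays against 9.12, 9.26 and 9.06 on untreated arrays (1.71-fold, log2 change 0.77, SE 0.13, limma adjusted p = 0.000829). EGLN3, an oxygen-sensing prolyl hydroxylase, was near background untreated and higher on every IL6 array, at 5.74, 6.22 and 6.80 against 4.69, 4.73 and 4.81 (at least 2.85-fold). LDHA, lactate dehydrogenase A, read 11.45, 12.30 and 12.84 after IL6 against 10.88, 10.85 and 10.80 untreated (2.56-fold, limma adjusted p = 0.0193). PKM, EGLN3 and LDHA were the 3 members that also rose in the reduced fit, at log2 changes of 0.77, 1.0 and 0.61. With the interferon array kept, LDHA on IL6 repeat 1 alone was not called (limma adjusted p = 0.514). The call of LDHA was lost without any 1 untreated array and without IL6 repeat 2 or 3, with log2 changes between 1.03 and 1.37, and the mean of its probe sets changed by 0.42.

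The 6 other called members were not called in the reduced fit, where their log2 changes were lower: NDRG1 (0.54), PFKP (0.56), BHLHE40 (0.48), PFKFB3 (0.34), P4HA2 (0.21) and ERO1A (0.14). All but PFKP also lost the call without IL6 repeat 2, without IL6 repeat 3 and without at least 1 untreated array. Over those fits the log2 change was 1.16 to 1.62 for NDRG1, 0.82 to 1.02 for BHLHE40, 0.71 to 1.05 for PFKFB3, 0.47 to 0.67 for P4HA2 and 0.41 to 0.68 for ERO1A. The mean over the probe sets of PFKFB3 (0.363) and of ERO1A (0.345) was below the minimum. NDRG1, a stress-induced protein, read 9.80, 11.05 and 11.76 on IL6 arrays against 9.25, 9.25 and 9.29 on untreated arrays. It rose 3.05-fold on average (limma adjusted p = 0.0327), most of it on repeats 2 and 3.

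The 15 named genes with the widest range among IL6 arrays had the same order without exception, lowest on repeat 1 and highest on repeat 3. Their ranges were 1.44 to 3.59 among IL6 arrays and 0.04 to 0.33 among untreated arrays. Of the 15, 4 belong to the hypoxia list and 1, NDRG1, was called. STC1, the secreted hormone stanniocalcin 1, read 5.37, 7.80 and 8.96 after IL6 against 5.22, 4.89 and 5.10 untreated, and its 4.95-fold mean difference missed the call (limma adjusted p = 0.0535). VEGFA, the hypoxia-induced angiogenic factor, read 9.41, 11.17 and 11.95 after IL6 against 9.48, 9.52 and 9.44 untreated (limma adjusted p = 0.119). For VEGFA repeat 1 was at the level of untreated cells, and repeats 2 and 3 were far above it. Without IL6 repeat 1 both were called, STC1 at 3.31 and VEGFA at 2.08, and likewise without interferon alpha repeat 3, at 2.31 and 1.36.

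CDKN1C, a cyclin-dependent kinase inhibitor, straddled the untreated level. It read 9.51, 11.93 and 12.76 on IL6 arrays against 10.89 to 11.02 on untreated arrays, a mean log2 change of 0.43 (SE 0.64, limma adjusted p = 0.691). In the reduced fit its log2 change was -1.46, and without IL6 repeat 1 it was 1.38, each called. With IL6 repeat 1 alone and the interferon array kept in the fit, the same -1.46 was not called (limma adjusted p = 0.160). DENND1A, a Rab guanine exchange factor, and IL20RA, a cytokine receptor, also turned direction. DENND1A had 0.55 over the 3 repeats and -0.66 on repeat 1 alone, and IL20RA had 0.02 and -0.81. With that interferon array kept in the fit, neither value of repeat 1 was called (limma adjusted p = 0.379 and 0.225).

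**Figure D4:**
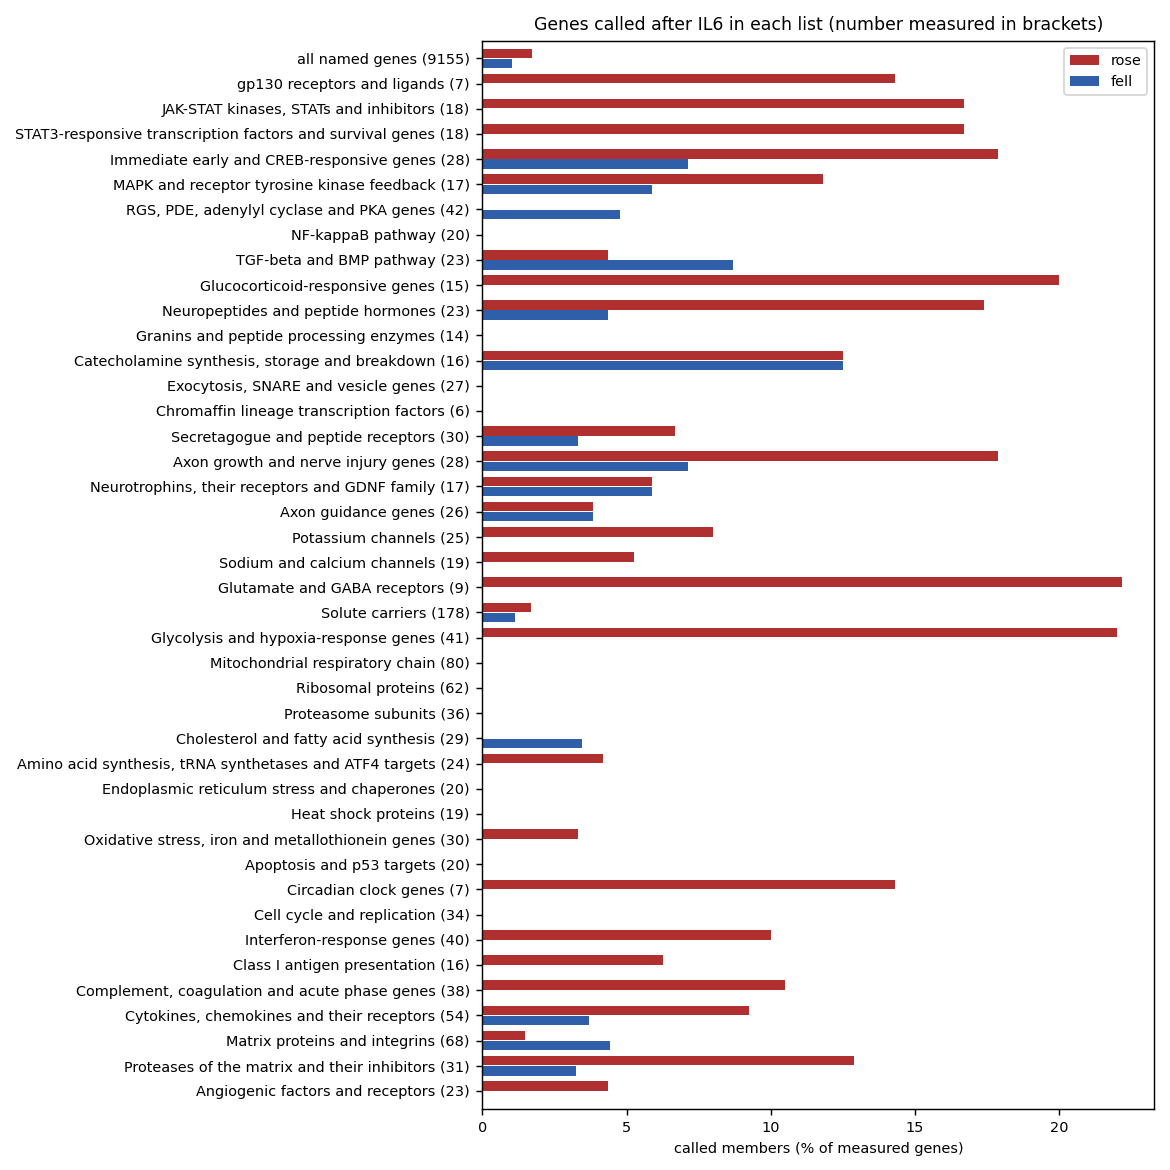
Share of the measured genes of each list that rose or fell after IL6 (x axis, percent of measured genes), 1 row per list with the number measured in brackets (y axis), and all named genes in the top row. Bars are single values with no error. The hypoxia and glycolysis list has 22.0% of its genes risen, against 1.73% of all named genes, and 11 lists have no bar.

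The remaining lists had few called members. Of 23 TGF-beta and BMP genes, BMP7, a bone morphogenetic protein, rose, at 10.45, 10.48 and 10.57 on IL6 arrays against 9.78, 9.74 and 9.73 on untreated arrays (1.68-fold, log2 change 0.75, SE 0.04, limma adjusted p = 4.56e-08). The receptor BMPR1A and the latent TGF-beta binding protein LTBP1 fell, at -0.63 and -0.77, but not in the reduced fit, where they were at -0.47 and -0.44. BMPR1A also missed the minimum without IL6 repeat 2 (-0.57), and the mean of its probe sets changed by -0.375. Of 42 genes of RGS proteins, phosphodiesterases, adenylyl cyclases and protein kinase A, 2 fell (4.76%) and 0 rose. PRKACB, a catalytic subunit of protein kinase A, read 9.48, 9.26 and 9.07 after IL6 against 10.13, 9.93 and 10.04 untreated (-0.76, SE 0.11), and AKAP5, which anchors that kinase, fell by 0.71 on the log2 scale. PRKACB was at -0.55 in the reduced fit, and the mean of the probe sets of AKAP5 was at -0.51, each below the minimum.

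Among 178 solute carriers 3 rose and 2 fell, shares of 1.69% and 1.12% that were close to the 1.73% and 1.04% of all named genes. SLC39A1, a zinc transporter, read 9.92, 9.96 and 9.81 on IL6 arrays against 9.11, 9.24 and 9.14 on untreated arrays (1.66-fold, log2 change 0.73, SE 0.06, limma adjusted p = 6e-07). SLC38A11, an amino acid transporter family member, read 8.27, 8.38 and 8.66 after IL6 against 9.11, 9.23 and 9.13 untreated (-0.72, SE 0.10). The glutamine transporter SLC1A5 rose 1.67-fold and the membrane transporter SLC4A11 fell (-0.67), neither evenly. SLC1A5 lost its call without untreated repeat 2 (0.68), without IL6 repeat 3 (0.58) and in the reduced fit (0.44), and SLC4A11 without IL6 repeat 1 (-0.58). Of 24 amino acid, tRNA synthetase and ATF4 target genes, VLDLR, a lipoprotein and reelin receptor, rose, at 10.10, 10.44 and 10.65 after IL6 against 9.19, 9.20 and 9.12 untreated (2.34-fold). The mean of the probe sets of VLDLR changed by 0.43.

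Several lists of general cell functions had no called member. Among 80 respiratory chain, 62 ribosomal protein, 36 proteasome, 20 endoplasmic reticulum stress, 19 heat shock, 20 apoptosis and 34 cell cycle genes, 0 were called in either direction by limma. At an unadjusted limma p under 0.05 there were 26, 17, 13, 8, 8, 9 and 15 of them, against 3236 of all 9155 named genes. Of 15 glucocorticoid-responsive genes 3 rose and 0 fell. That list does not hold every such gene, and KLF15, outside it, fell, as given under the other observations. Among the 3 that rose was the metallothionein MT2A, at 9.42, 9.57 and 9.54 after IL6 against 8.92, 8.93 and 8.84 untreated (1.53-fold). MT2A missed the minimum without IL6 repeat 2 (log2 change 0.58) and in the reduced fit (0.52). Of 29 cholesterol genes 1 was called, INSIG1, which restrains sterol synthesis, at 7.73, 7.32 and 7.02 after IL6 against 7.95, 7.94 and 8.15 untreated. The fall of INSIG1 (-0.66, limma adjusted p = 0.0401) was lost without any 1 untreated array, without IL6 repeat 2 or 3 and without histamine repeat 2, with log2 changes between -0.69 and -0.49, and it was -0.28 in the reduced fit. GAPDH and ACTB, often used as loading controls, had log2 changes of 0.19 each.

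Markers of other adrenal cells also differed, and in these bulk samples fewer cells of a type and less RNA per cell cannot be told apart. Of 15 cortical cell markers, 3 fell and 0 rose, and 8 were lower on every IL6 array than on any untreated array, as were 22.5% of all named genes. CYP11A1, which begins steroid synthesis from cholesterol, read 5.98, 5.74 and 5.54 on IL6 arrays against 6.98, 7.08 and 7.02 on untreated arrays (log2 change -1.27, SE 0.13, limma adjusted p = 8.29e-06). HSD3B1, a steroid dehydrogenase, read 7.37, 7.38 and 7.40 after IL6 against 8.22, 8.12 and 8.15 untreated (-0.78, SE 0.06), and STAR, which carries cholesterol into mitochondria, read 5.25, 5.12 and 4.95 against 5.98, 5.95 and 5.95 (-0.85, SE 0.10). The summed signal of the 15 markers was 11.06, 11.26 and 11.32 in log2 after IL6 against 11.45, 11.42 and 11.43 untreated, and 2 of the markers were near background.

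Of 16 leukocyte markers 2 rose (12.5%) and 1 fell (6.25%). CORO1A, an actin regulator of leukocytes, read 9.43, 9.43 and 9.21 on IL6 arrays against 7.68, 7.67 and 7.62 on untreated arrays (3.25-fold, log2 change 1.70, SE 0.08, limma adjusted p = 8.78e-09), and CD14, a co-receptor for bacterial lipopolysaccharide, rose 2.05-fold. ITGB2, the leukocyte integrin, fell, and PTPRC was near background in both groups. The summed signal of the list, in which these genes are counted, was 10.77, 10.72 and 10.64 after IL6 against 10.05, 9.98 and 9.96 untreated. Among 15 endothelial markers EMCN fell (-0.60) and 0 rose, and 5 were near background. EMCN missed the minimum without untreated repeat 3 (-0.56) and as the mean of its probe sets (-0.575). The summed signal of the 15 endothelial markers was 9.62, 9.73 and 9.80 after IL6 against 9.90, 9.86 and 9.89 untreated. Among 16 fibroblast and mural cell markers POSTN rose and ACTA2, smooth muscle actin, fell (-0.67), with sums of 14.03, 14.09 and 14.13 after IL6 against 14.30, 14.24 and 14.26 untreated.

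Of 7 Schwann and sustentacular cell markers GAP43 alone was called, and of 7 erythrocyte markers 0 were. The Schwann and sustentacular sum, in which GAP43 is counted, was 11.79, 11.80 and 11.76 after IL6 against 10.82, 10.90 and 10.87 untreated. The erythrocyte sum was 7.93, 7.99 and 8.05 after IL6 against 7.90, 7.81 and 7.96 untreated. The 10 chromaffin markers, with 1 rise and 1 fall, summed to 16.15, 16.24 and 16.31 after IL6 against 16.28, 16.26 and 16.24 untreated, and their groups overlapped. The part of a changed cell mixture in the cortical, leukocyte, endothelial, fibroblast, matrix, chemokine and axon genes above, GAP43 included, was not tested.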

How the data were processed

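Per the labels' protocols, the starting material was total RNA, the label was biotin and the arrays were Affymetrix bovine arrays, with 1 array per sample. The table that was deposited holds log2 expression values of 24128 probe sets, made by the authors with RMA, per the submitters' processing notes. That method subtracts background, normalises between arrays and summarises probes, which compresses differences of dim transcripts and near saturation. The labels state no version or settings.

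After 112 control probe sets were left out, 24016 were tested with limma 3.58.1 (R 4.3.3), using lmFit with group means over 12 arrays, eBayes with a trend and Benjamini-Hochberg adjustment. The platform annotation gave 13292 probe sets a single symbol, 86 several and 10638 none. A gene is represented by its brightest probe set, and 2913 genes had several. Of 253 called genes, 78 had other probe sets, of which at least 1 was called the same way for 37 and the opposite way for 0.

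Named were the 30 rises and 30 falls with the largest least-moved repeat, called list members with uncalled members of the same lists for their values, a fixed set of pathway and chromaffin genes, and the 15 genes with the widest range among IL6 arrays. Members and lists were chosen with earlier results of these data known. On simulated data (IL6 against untreated, 24016 probe sets) 52% of 1.5-fold, 98% of 2-fold and 100% of 4-fold changes were recovered, with 0 false calls. The simulated 1.5-fold changes lay at the fold minimum itself, so many fall below it whatever the test. Noise was drawn separately for each value, without a shift shared by genes of an array. The count of false calls therefore does not cover shifts like that of the hypoxia genes. Alternatives were other fold minimums, treat at 1.2-fold, other eBayes settings, array weights, a filter on dim probe sets, other scalings, other sets of arrays, the repeat number as a block and the mean of a gene's probe sets. Promoter motifs were not searched. Figures used matplotlib 3.10.9 in Python 3.11.15.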

Additional observations from a re-analysis of the deposited data

How the results depend on the processing

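Of the 573 probe sets called, 0 were called in the opposite direction under any alternative fitted to probe sets. Counts of 345 rises and 228 falls became 1604 and 2566 without a fold minimum, 115 and 33 at a 2-fold minimum, and 518 and 427 with IL6 repeat 3 alone. Leaving out each array in turn gave 329 to 447 rises and 225 to 318 falls, both highest without IL6 repeat 1. Without the 3 arrays with raised hypoxia genes there were 415 rises and 280 falls, and 459 of the called probe sets were shared. In that fit CDKN1C, DENND1A and IL20RA which were not called, had -1.46, -0.66 and -0.81 in place of 0.43, 0.55 and 0.02 and were called as falls, and the cause was not tested. Deviations from the group means correlated at 0.17, 0.13 and 0.05 between same-numbered IL6 and untreated arrays, and at -0.15 to 0.05 between differently numbered ones. Between IL6 and interferon alpha arrays the values were 0.53, -0.07 and 0.60 for repeats 1, 2 and 3. There they were -0.61 to 0.37 for different numbers. The main fit did not pair the arrays, and whether a repeat number marks something shared was not tested. With the replicate number as a block 365 probe sets rose and 235 fell, 12 in place of 9 of the 41 hypoxia genes rose, and ACKR3, AK4, PAG16, SLC16A3 and STC1 gained calls. Further normalisation gave 360 to 395 rises and 194 to 218 falls. Median centring moved the median change of all probe sets from 0.003 to 0.04, and leaving out the dimmer 50% gave -0.05. In the simulation 52% of changes at 1.5-fold, which is the minimum itself, were recovered. Of the 153 named genes, 73 were called at 1.5-fold but not at 2-fold. Of the 153, 20 lost the call with treat at 1.2-fold, 15 with the mean of a gene's probe sets, 10 with robust eBayes and 6 without a trend.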

Other observations

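The rises described here lay outside the lists and were chosen after their values were seen. DKK1, a secreted inhibitor of Wnt signalling, read 6.97, 6.52 and 6.27 on IL6 arrays against 5.13, 5.06 and 5.19 on untreated arrays (2.75-fold, log2 change 1.46, SE 0.15, limma adjusted p = 9.04e-06). BTC, betacellulin, a ligand of the epidermal growth factor receptor, read 6.59, 6.51 and 6.60 after IL6 against 5.26, 5.51 and 5.51 untreated (2.20-fold). LMO2, a transcriptional adaptor of blood and endothelial development, read 7.64, 7.67 and 7.50 after IL6 against 6.48, 6.33 and 6.36 untreated (2.32-fold). All IL6 arrays of these 3 genes were above all untreated arrays. The creatine kinases CKB and CKM rose 1.69-fold and 1.65-fold, CKM with 11.19, 11.30 and 11.17 after IL6 against 10.48, 10.48 and 10.52 untreated. The cadherins CDH1 and CDH3 rose 1.66-fold and 1.52-fold.

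Falls outside the lists, also chosen after their values were seen, included the epoxide hydrolases EPHX1 (log2 change -0.66) and EPHX2 (-0.71). EPHX2 read 7.31, 7.30 and 7.26 on IL6 arrays against 7.94, 8.04 and 8.01 on untreated arrays (SE 0.06, limma adjusted p = 1.7e-06). KLF15, a glucocorticoid-induced regulator of metabolism, read 7.83, 7.80 and 7.79 after IL6 against 8.5, 8.52 and 8.54 untreated (-0.71, SE 0.08). The glucocorticoid receptor NR3C1 read 8.44, 8.48 and 8.51 after IL6 against 9.05, 9.06 and 9.05 untreated. NR3C1 was lower on every IL6 array (-0.58, SE 0.05, limma adjusted p = 3.85e-06) but did not reach the 1.5-fold minimum. RAMP1, a subunit of the receptor for calcitonin gene-related peptide, read 10.30, 10.58 and 10.53 after IL6 against 11.05, 11.09 and 11.13 untreated (-0.62, SE 0.07).

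Some called genes outside the lists followed the repeats of the hypoxia genes, lowest on IL6 repeat 1. UPP1, a uridine phosphorylase, read 6.92, 7.63 and 8.14 after IL6 against 5.90, 6.06 and 6.10 untreated (2.91-fold). PPP1R3C, a subunit that directs a phosphatase to glycogen, read 5.61, 6.48 and 6.84 after IL6 against 5.51, 5.35 and 5.31 untreated (1.89-fold), while UPP1 was well above untreated cells on repeat 1 too.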
